A study of Mus musculus with 4 samples.

Results

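Desmin and synemin, which build the intermediate filaments of smooth muscle, were examined with 2 related filament genes and with 6 genes whose proteins anchor actin at dense bodies. The intermediate filament genes were Des, Synm, Vim and Nes. The actin anchoring genes were Synpo2, Pgm5, Ldb3, Nexn, Flna and Actn1. The 10 genes were taken by symbol from 19296 genes on the array, each read from its brightest probe set with exactly 1 gene symbol. All 10 were measured, each had 1 such probe set, so isoforms were not told apart, and all 10 lay above the background level in at least 1 genotype. They were chosen with earlier results from these arrays in view.

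RNA came from the ureter of male mice of a 129Sv/C57BL6 mix. The miR-143/145-/- mice, called knockout here, were 2 animals aged 2.5 months with hydronephrosis, a kidney swollen by retained urine. The miR-143/145+/+ mice, called wild type, were 2 animals aged 4.5 months whose kidneys were normal. Each animal had its own array. Genotype, age and kidney state changed together, and their parts in any difference cannot be told apart. The labels name no Cre or cell type to which the deletion was limited, and the ureter was measured as a whole.

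A smooth muscle cell has no sarcomeres. Its thin filaments are held instead by dense bodies in the cytoplasm and by dense plaques at the membrane, where alpha-actinin, filamin and partner proteins bind actin. Intermediate filaments of desmin and vimentin run between these points and pass tension across the cell. Synemin cannot form a filament alone and joins those of desmin or vimentin. miR-143 and miR-145 are abundant in smooth muscle and are known for their effects on actin dynamics and on the contractile state.

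The sequences before the annotated starts of the 3 genes of the set with the lowest differences between genotypes, Synm, Des and Synpo2, are shown beside that of Ldb3, the gene with the highest difference among those with an entry. Each is the 250 bases upstream of the start on the gene's strand, from RefSeq on GRCm38.p6. A table of such windows matched 9 of the 10 genes, all except Nexn, and held 2 overlapping windows for Ldb3, of which the upstream one is shown. Capitals mark the E-box letters CANNTG, the CArG box bound by serum response factor and the MEF2 box.
Synm, chr7:67759743-67759992, minus strand: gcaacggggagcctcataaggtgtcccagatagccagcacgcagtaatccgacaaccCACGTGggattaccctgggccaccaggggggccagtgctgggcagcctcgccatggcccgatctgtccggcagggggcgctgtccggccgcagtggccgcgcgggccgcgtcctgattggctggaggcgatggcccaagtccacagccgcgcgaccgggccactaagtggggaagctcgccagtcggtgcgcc
Des, chr1:75360042-75360291, plus strand: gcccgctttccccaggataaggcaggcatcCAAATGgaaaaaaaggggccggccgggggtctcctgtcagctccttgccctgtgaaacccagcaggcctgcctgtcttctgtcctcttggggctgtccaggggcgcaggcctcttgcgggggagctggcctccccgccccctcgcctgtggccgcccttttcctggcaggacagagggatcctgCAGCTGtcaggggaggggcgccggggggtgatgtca
Synpo2, chr3:123236150-123236399, minus strand: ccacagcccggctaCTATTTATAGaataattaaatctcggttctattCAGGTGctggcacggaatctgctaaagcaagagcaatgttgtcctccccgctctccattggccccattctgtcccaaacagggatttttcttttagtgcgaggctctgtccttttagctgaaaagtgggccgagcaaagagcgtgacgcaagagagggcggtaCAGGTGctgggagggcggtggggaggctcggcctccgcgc
Ldb3, chr14:34588682-34588931, minus strand: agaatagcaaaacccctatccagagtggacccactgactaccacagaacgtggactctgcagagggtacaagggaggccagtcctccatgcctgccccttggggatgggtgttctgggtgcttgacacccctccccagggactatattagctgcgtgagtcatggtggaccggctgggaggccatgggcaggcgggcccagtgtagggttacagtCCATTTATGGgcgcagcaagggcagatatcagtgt

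On either strand, the CArG box was found in the window of 1 gene of the set, Ldb3, where it spanned bases 35 to 26 before the start. It was found in 1.47% of 32851 windows of the same length. The MEF2 box was found in that of Synpo2 alone, at bases 236 to 227, and in 0.508% of all windows. The letters CANNTG were found in the windows of Des, Synm, Synpo2, Pgm5 and Actn1 and in 66.2% of all windows. The letters TATAAA were present before Vim, at bases 32 to 27, and in Synpo2, where they overlap the MEF2 box on the other strand, against 12.4% of all windows. The M-CAT letters CATTCC were found in Flna and in 12.6% of all windows. These matches describe the letters and do not show that a factor binds there, and no match says only that the letters are not in this window.

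The deleted genes matched the labels. Mir145a measured 4.60 and 5.02 on the log2 scale in knockout ureters, against 8.28 and 8.42 in wild type ureters, and Mir143 measured 6.48 and 6.53 against 7.64 and 7.85. Both knockout values lay below the background level of 6.58 for each gene. Over all 19296 genes, limma called 459, or 2.38%, at an adjusted p under 0.05. Of these 367 were higher in knockout (1.90%) and 92 lower (0.477%), while median centring of each array gave 309 higher and 317 lower genes. The correlation across genes was 0.991 between the knockout arrays, 0.993 between the wild type arrays and 0.980 to 0.985 between genotypes. All 11 smooth muscle markers and all 9 urothelium markers lay above background.

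None of the 10 genes passed the adjusted threshold, and the filament and anchoring genes leaned in opposite directions. Among the intermediate filament genes 3 of 4 were lower in knockout, with a median log2 difference of -0.18. Among the actin anchoring genes 5 of 6 were higher, with a median of 0.25. Leaving out 1 mouse moved these medians, from -0.30 without knockout replicate 1 to -0.09 without knockout replicate 2 for the filament genes and from 0.16 to 0.33 for the anchoring genes. The median over all 19296 genes was -0.02, with 9086 higher and 10210 lower. Over the 14227 genes above background it was 0.03, with 7748 higher and 6479 lower. Limma called 0 of 10 after adjustment. At an unadjusted p under 0.05 there were 3 of the 10, against 26.5% of all genes: Ldb3 and Nexn were higher (12.7% of all genes) and Synm lower (13.8%). The genotypes did not overlap for 8 of the 10, against 60.0% of all genes. Of these 8, 5 were higher in both knockout mice (28.0% of all genes) and 3 were lower (32.0%). With 10 genes, these counts do not set the group apart from all genes. In whole tissue, fewer cells of a type and less RNA per cell cannot be told apart.

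**Figure D1:**
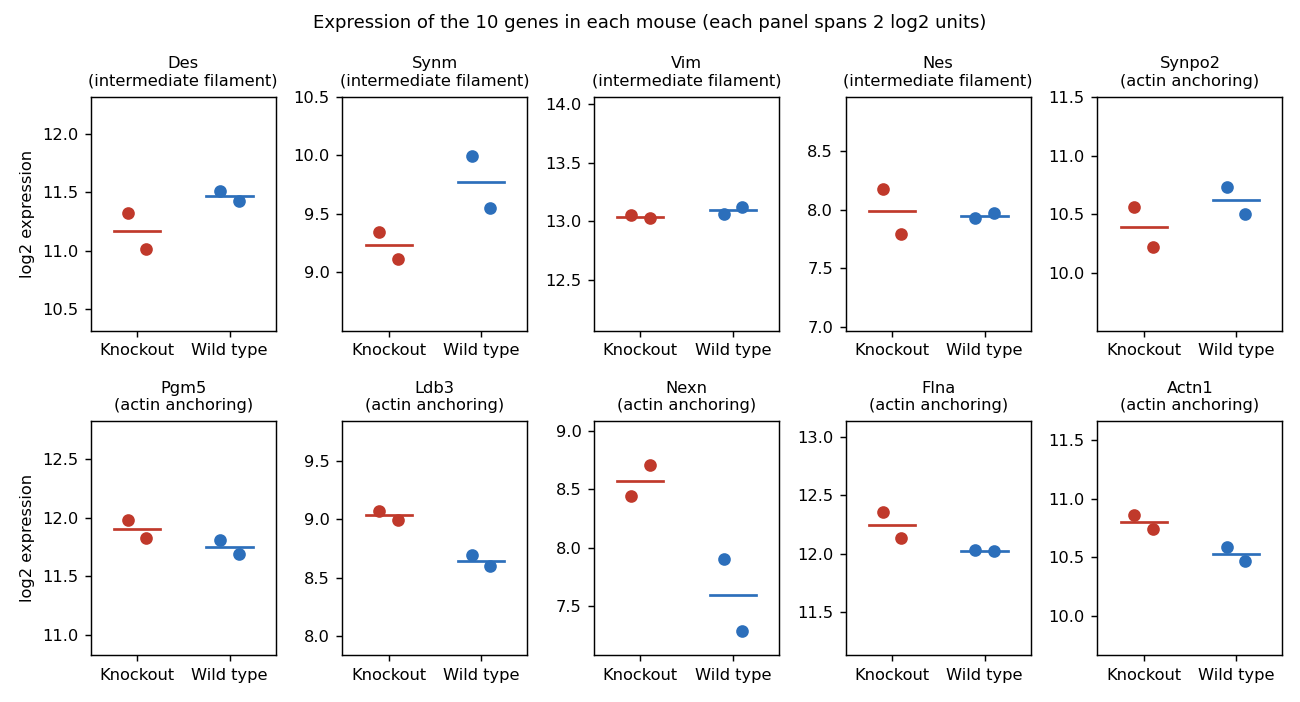
Log2 expression of the 10 genes in each mouse, 1 panel per gene, with knockout at the left and wild type at the right of each panel. Points are mice and lines are means of 2 mice, and every panel spans the same log2 range around its own centre. Des and Synm sit lower in both knockout mice, Nexn and Ldb3 sit higher, and Nes and Synpo2 overlap.

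Synemin had the lowest difference of the set. Synm, whose large protein ties filaments to alpha-actinin, measured 9.35 and 9.12 on the log2 scale in knockout ureters, against 9.997 and 9.55 in wild type ureters. Both knockout mice lay below both wild type mice, but the wild type mice differed from each other by 0.45, more than the gap of 0.20 between the nearest mice of the genotypes. The mean was 9.23 ± 0.16 in knockout and 9.77 ± 0.32 in wild type (SD, n = 2 each). The log2 difference was -0.54, with a 95% interval from -0.95 to -0.13 and a limma adjusted p of 0.115, and it corresponds to a level 1.46-fold lower in knockout. The difference was -0.32 without wild type replicate 1 and -0.77 without wild type replicate 2, and neither passed. Its spread within genotypes was larger than that of 90.6% of the genes above background.

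Desmin showed a smaller difference of the same sign. Des, the muscle-specific filament protein that joins dense bodies to each other and to the membrane, measured 11.33 and 11.01 in knockout ureters, against 11.51 and 11.42 in wild type ureters. Both knockout values were below both wild type values, and knockout replicate 2 was the lowest of the 4. The log2 difference was -0.30 (95% interval -0.63 to 0.04, limma adjusted p = 0.229), or 1.23-fold lower in knockout. It was -0.46 without knockout replicate 1 and -0.14 without knockout replicate 2 (adjusted p = 0.121 and 0.715), so its size rested on knockout replicate 2.

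The other 2 filament genes differed little. Vim, the filament protein of mesenchymal cells such as fibroblasts and also of endothelium, measured 13.05 and 13.03 in knockout ureters and 13.06 and 13.13 in wild type ureters. Its log2 difference was -0.05 (95% interval -0.32 to 0.21, adjusted p = 0.795), so a fall of more than 0.32 and a rise of more than 0.21 lay outside the interval. Nes, a filament protein of immature and regenerating cells that assembles with vimentin, measured 8.18 and 7.79 in knockout ureters and 7.93 and 7.97 in wild type ureters. The knockout mice lay on either side of the wild type mice, with a log2 difference of 0.04 (95% interval -0.32 to 0.39, adjusted p = 0.898).

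Within each array, Des and Synm were also lower against Vim in knockout mice. Des minus Vim was -1.72 and -2.02 log2 units in knockout ureters and -1.55 and -1.70 in wild type ureters. Synm minus Vim was -3.70 and -3.91 in knockout ureters and -3.06 and -3.58 in wild type ureters. Neither pair of genotypes overlapped, though for Des minus Vim the gap between the nearest mice was 0.02. Synm minus Des was -1.98 and -1.89 in knockout ureters and -1.51 and -1.87 in wild type ureters, so the nearest mice again lay close. These values are differences between probe sets, and only their change between mice can be read.

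Nexilin had the highest difference of the 10 genes. Nexn, an actin-binding protein of cell adhesions and, in striated muscle, of the Z-disc, measured 8.44 and 8.71 on the log2 scale in knockout ureters, against 7.90 and 7.29 in wild type ureters. Both knockout mice lay above both wild type mice, and the wild type mice differed from each other by 0.61. The mean was 8.57 ± 0.19 in knockout and 7.60 ± 0.43 in wild type (SD, n = 2 each). The log2 difference was 0.98 (95% interval 0.48 to 1.47), or 1.97-fold higher, with a limma adjusted p of 0.0587. Without knockout replicate 1 the difference was 1.11 and passed (adjusted p = 0.00859), and with robust eBayes it passed at 0.0417. Without knockout replicate 2, wild type replicate 1 or wild type replicate 2 the differences were 0.84, 1.28 and 0.67 and did not pass (adjusted p = 0.0638, 0.183 and 0.244).

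Ldb3 was higher with the tightest replicates among the anchoring genes. Ldb3, a PDZ and LIM domain protein that binds alpha-actinin at the Z-disc of striated muscle, measured 9.07 and 8.998 in knockout ureters, against 8.69 and 8.60 in wild type ureters. The genotypes were well apart relative to their spread, yet the adjusted p was 0.101 (log2 difference 0.39, 95% interval 0.11 to 0.66). Actn1, the alpha-actinin that crosslinks actin in dense bodies, measured 10.86 and 10.74 in knockout ureters, against 10.59 and 10.46 in wild type ureters. Its log2 difference was 0.28 (95% interval -0.01 to 0.56, adjusted p = 0.198), with no overlap between genotypes.

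Filamin A and aciculin had smaller positive differences. Flna, which crosslinks actin into networks and ties it to integrins, measured 12.36 and 12.13 in knockout ureters, against 12.03 and 12.02 in wild type ureters, a log2 difference of 0.21 (95% interval -0.08 to 0.51, adjusted p = 0.314). The difference was 0.10 without knockout replicate 1 and 0.33 without knockout replicate 2. Pgm5, which encodes aciculin, a relative of phosphoglucomutase found at adhesion plaques, measured 11.98 and 11.83 in knockout ureters, against 11.81 and 11.69 in wild type ureters. The nearest mice of the genotypes lay 0.02 apart, and the log2 difference was 0.16 (95% interval -0.13 to 0.44, adjusted p = 0.448). It was 0.08 without knockout replicate 1 and 0.10 without wild type replicate 2.

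Synpo2 was the 1 anchoring gene with a negative difference. It encodes myopodin, which bundles actin and binds alpha-actinin and filamin. It measured 10.56 and 10.22 in knockout ureters and 10.73 and 10.51 in wild type ureters. Knockout replicate 1 lay above wild type replicate 2, so the genotypes overlapped, and the log2 difference was -0.23 (95% interval -0.60 to 0.14, adjusted p = 0.379). Without knockout replicate 2 it was -0.06 and without wild type replicate 1 it was -0.11, while without knockout replicate 1 it was -0.40 and without wild type replicate 2 it was -0.34.

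**Figure D2:**
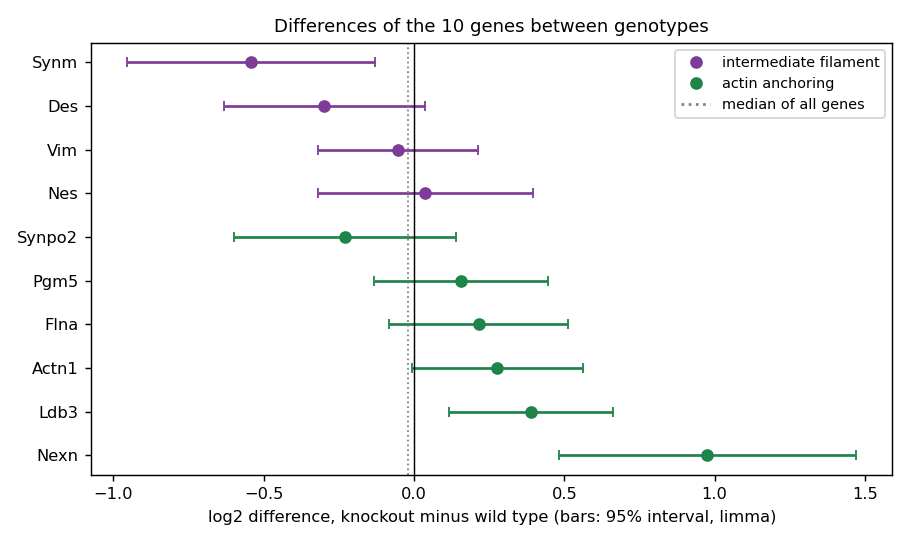
Log2 difference, knockout minus wild type, of the 10 genes with the 95% interval of limma, intermediate filament genes above and actin anchoring genes below, with the median of all genes as a dotted line. The intervals of Synm, Ldb3 and Nexn leave out 0 and the other 7 include it, before any adjustment for the number of genes tested.

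The contrast between filament and anchoring genes was worked out for each mouse, and only its change between mice can be read. The mean log2 value of the 4 filament genes was 10.47 and 10.24 in knockout ureters and 10.62 and 10.52 in wild type ureters. That of the 6 anchoring genes was 10.54 and 10.44 in knockout ureters and 10.29 and 10.10 in wild type ureters. Within each array the filament mean minus the anchoring mean was -0.07 and -0.20 in knockout ureters and 0.33 and 0.42 in wild type ureters. The knockout mice were thus lower on this measure than both wild type mice, and the difference was -0.51 log2 units, against SDs of 0.09 in knockout and 0.06 in wild type (n = 2 each). The size rested in part on single genes, since it was -0.40 without Synm and -0.37 without Nexn. It was not tested, because the genes were chosen with results known. It cannot say which of the groups differed.

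**Figure D3:**
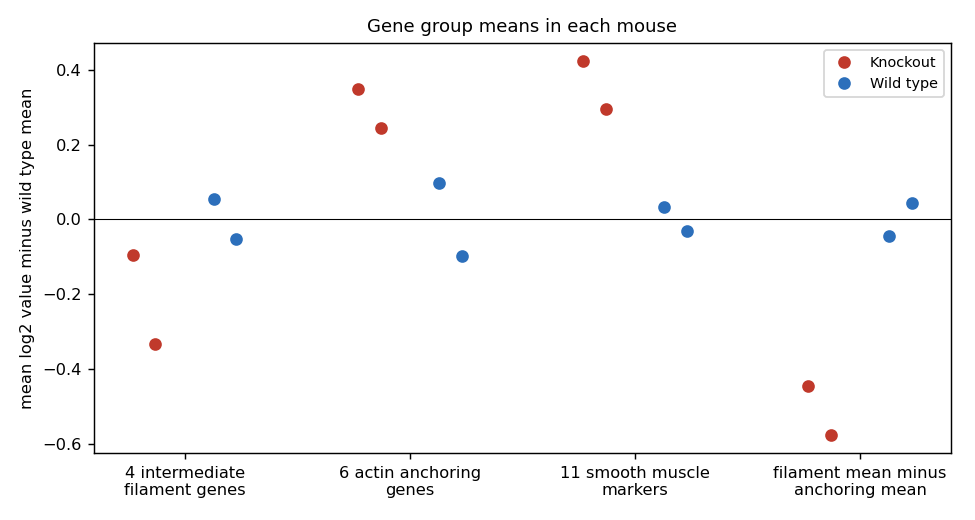
Mean log2 value of gene groups in each mouse after the wild type mean was subtracted, with knockout mice left of wild type mice in each pair. The last position is the filament mean minus the anchoring mean, where the 2 knockout mice lie well below the wild type mice.

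Smooth muscle markers were higher beside these genes. All 11 were higher in both knockout mice than in both wild type mice, beside 28.0% of all genes. Limma called 1, beside 1.90% of all genes called higher. At an unadjusted limma p under 0.05, 6 of the markers were higher, beside 12.7% of all genes. Their mean log2 value was 11.63 and 11.50 in knockout ureters and 11.24 and 11.17 in wild type ureters, and their summed linear signal was 45128 to 48072 in knockout and 36980 to 39047 in wild type. Relative to that marker mean, Des was -0.30 and -0.49 in knockout ureters and 0.28 and 0.25 in wild type ureters. Synm was -2.28 and -2.38 in knockout ureters and -1.24 and -1.62 in wild type ureters, and Synpo2 was -1.07 and -1.28 against -0.50 and -0.67. The differences of Des, Synm and Synpo2 against the markers were -0.66, -0.90 and -0.59 log2 units. Those of Vim, Nes, Pgm5, Flna and Actn1 were -0.41, -0.32, -0.20, -0.14 and -0.08. For all 8 of these genes both knockout mice lay below both wild type mice on this measure. The share of all genes for which this holds was not worked out, so the count cannot be set against it. Among the 11 markers Myocd had the largest difference, 1.01, beside a list median of 0.29, and it raises the marker mean. The marker mean was itself higher in knockout by 0.36, and subtracting it lowers the difference of every gene by that amount. Before the subtraction, Pgm5, Flna and Actn1 were higher in both knockout mice, and Nes and Synpo2 overlapped. Ldb3 kept nearly the same distance from the marker mean, -2.55 and -2.50 in knockout ureters and -2.54 and -2.57 in wild type ureters, a difference of 0.03. Nexn was higher against the markers by 0.62, and the 6 anchoring genes together differed by -0.06. The markers and genes are not independent of each other and this measure was not tested.

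Markers of other cell types also moved. Adipocyte markers, 5 tested, were lower in knockout for all 5 and 0 were called by limma. At an unadjusted limma p under 0.05, 4 were lower, beside 13.8% of all genes. Their summed linear signal was 29611 and 20016 in knockout ureters and 38209 and 36993 in wild type ureters. The mice stood in the same order for this sum as for Des and for Synm, with knockout replicate 2 lowest and wild type replicate 1 highest. The part of adipose tissue in the values of Des and Synm was not tested. Fibroblast markers, which mark cells rich in vimentin, were higher in both knockout mice for 7 of 7, beside 28.0% of all genes. Limma called 3, beside 1.90% of all genes called higher. At an unadjusted limma p under 0.05, 6 were higher, beside 12.7% of all genes. The sum of the fibroblast markers was 25084 to 27931 in knockout and 18567 to 19196 in wild type. Vim did not follow them. Urothelium markers were higher for 9 of 9, all 9 at an unadjusted limma p under 0.05, with 1 called. The sum of the urothelium markers was 38608 to 49787 in knockout and 28099 to 32184 in wild type. Their part in the anchoring genes, several of which are made in many cell types, was not tested.

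Markers of striated muscle, which also makes Des, Ldb3 and Nexn, had differences of both signs and no calls. Of 10 skeletal muscle markers 4 lay below background in both genotypes, among them the myosin heavy chain genes Myh1, Myh2 and Myh4. The summed signal of the list was 2898 to 3426 in knockout and 3157 to 3356 in wild type, and these ranges overlapped. In this list 2 were higher and 8 lower, and limma called 0, while 1 higher gene and 2 lower ones had an unadjusted p under 0.05. Of all genes, 12.7% were higher and 13.8% lower at that limma p. Of 6 cardiac muscle markers 2 were higher and 4 lower with 0 called by limma (unadjusted p under 0.05 for 1 of each), and the sum was 3921 to 4168 in knockout and 2653 to 3018 in wild type. That sum was mostly Tnnt2, which measured 11.60 and 11.74 in knockout ureters and 11.11 and 10.80 in wild type ureters. The part of striated muscle in Des, Ldb3 and Nexn was not tested. Kidney tubule markers were highest in knockout replicate 1 and varied between the wild type mice too. Their sum was 5927 and 991 in knockout replicates 1 and 2 and 817 and 1736 in wild type. Without knockout replicate 1 the differences were -0.46 for Des, -0.66 for Synm, 0.35 for Ldb3 and 1.11 for Nexn. Without knockout replicate 2 they were -0.14, -0.43, 0.43 and 0.84.

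**Figure D4:**
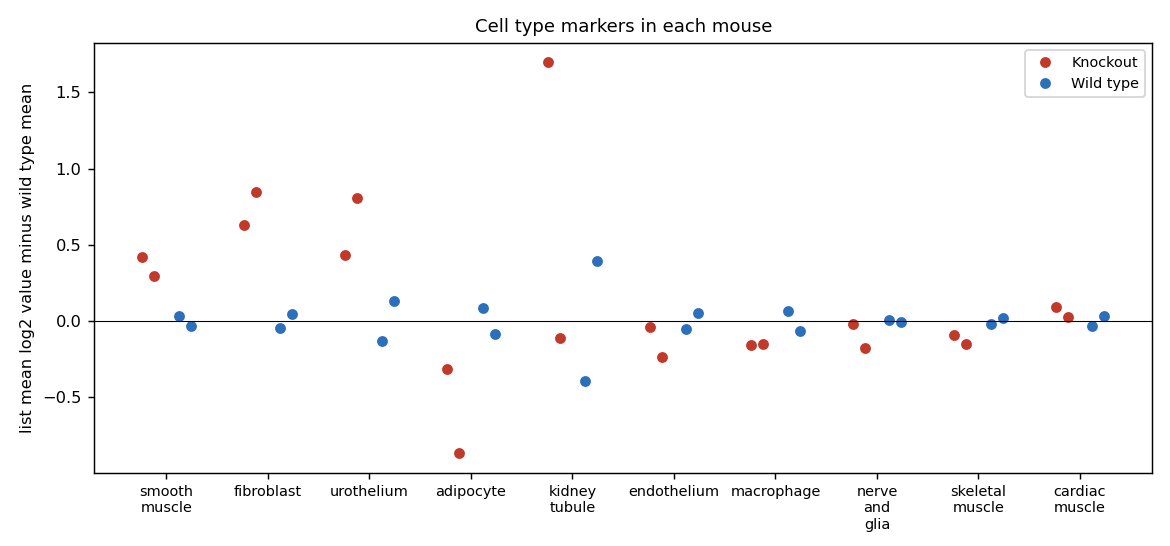
Mean log2 value of cell type marker lists in each mouse after the wild type mean was subtracted, with knockout mice left of wild type mice. Smooth muscle, fibroblast and urothelium markers lie higher in both knockout mice, and adipocyte markers lie lower. Kidney tubule markers are highest in knockout replicate 1 and next in wild type replicate 2.

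Endothelium, macrophage and nerve markers differed less. Of 7 endothelium markers 2 were higher and 5 lower, with a sum of 8950 to 10591 in knockout and 10674 to 11354 in wild type. Of 5 macrophage markers 0 were higher, with a sum of 1766 to 1794 in knockout and 1916 to 2111 in wild type, and of 4 nerve and glia markers 1 was higher, with a sum of 1102 to 1264 in knockout and 1246 to 1247 in wild type. Limma called 0 in each of these lists, with 2 endothelium markers lower and none of the others at an unadjusted p under 0.05. Of all genes, 13.8% were lower at that limma p. Of 3 markers of interstitial cells of Cajal, the pacemaker-like cells, 2 were higher and 1 lower. Ano1 and Etv1 were higher (log2 differences 0.49 and 0.88), and Kit was lower in both knockout mice (-0.42). Limma called 1, Etv1, beside 1.90% of all genes called higher. At an unadjusted limma p under 0.05, 2 were higher and 1 lower, beside 12.7% and 13.8% of all genes. The sum was 3581 to 3617 in knockout and 2538 to 2729 in wild type. Ano1 had the largest values in it, so the sum does not show the lower Kit.

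Further genes of dense bodies and actin anchorage leaned the way of the 6 anchoring genes. Of 44 tested, 30 were higher and 14 lower in knockout. Their median log2 difference was 0.15, beside -0.02 for all genes and 0.03 for genes above background. Limma called 2, both higher, or 2 of 44 beside 1.90% of all genes. At an unadjusted limma p under 0.05, 15 were higher and 4 lower, beside 12.7% and 13.8% of all genes. Csrp2, a LIM protein that binds alpha-actinin, rose to 10.70 and 10.74 in knockout ureters, against 9.99 and 10.01 in wild type ureters (log2 difference 0.72, SE 0.11, adjusted p = 0.0364). Palld, which encodes the actin-bundling protein palladin, rose to 10.21 and 10.13, against 9.58 and 9.51 in wild type ureters (log2 difference 0.62, SE 0.11, adjusted p = 0.0490). Both genes had close replicates and genotypes that did not overlap.

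The next genes of that list fell short of the threshold. Svil, which ties actin to the membrane, differed by 0.63 (adjusted p = 0.0530), and Fhl2, a LIM protein of adhesions and of the nucleus, by 0.57 (adjusted p = 0.0541). Of the list 4 genes lay below background in both genotypes, Myot, Mypn, Xirp2 and Nrap, all known from the Z-disc or the intercalated disc of striated muscle. Myot, Xirp2 and Nrap were among the 4 lower genes at an unadjusted limma p under 0.05. The remaining lower gene, Synpo2l, lay close to background, at 6.43 and 6.50 in knockout ureters and 6.67 and 7.02 in wild type ureters. The list shares 2 genes with the smooth muscle markers. With a further quantile normalization Csrp2 and Palld lost their calls (adjusted p = 0.0515 and 0.0643), and without wild type replicate 1 or 2 both were lost as well (0.183 to 0.233), when limma called 0 of all genes. The call of Palld also ended without knockout replicate 1 or 2 (0.05001 and 0.0554), with array weights (0.0501) and with centred arrays (0.0521).

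Dystrophin was the called gene in the list of the dystrophin complex and caveolae, the membrane sites that alternate with dense plaques. Of 18 genes tested, 10 were higher and 8 lower, with a median of 0.03, beside 0.03 for all genes above background. Limma called 1 of the 18, higher in knockout, beside 1.90% of all genes. At an unadjusted limma p under 0.05, 4 were higher and 0 lower, beside 12.7% and 13.8% of all genes. Dmd, which links actin to the dystroglycan complex, rose to 9.71 and 9.32 in knockout ureters, against 8.66 and 8.42 in wild type ureters (log2 difference 0.98, SE 0.17, adjusted p = 0.0403). The genes of 3 partners of dystrophin came next without passing. Dtnb and Dtna, the dystrobrevins, differed by 0.62 and 0.46 (adjusted p = 0.0694 and 0.106), and Sgca, a sarcoglycan, by 0.62 (adjusted p = 0.0729). Dmd no longer passed after a further quantile normalization (adjusted p = 0.0617) and without wild type replicate 1 or 2 (0.183 and 0.238).

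Other filament and linker genes showed no calls and did not lean the way of the 4 filament genes. Of 23 tested, 15 were higher and 8 lower, the median was 0.18, and limma called 0. The median of the 4 filament genes had the opposite sign, at -0.18. At an unadjusted limma p under 0.05, 7 were higher and 1 lower, beside 12.7% and 13.8% of all genes. The 1 lower gene was Nefl, which lay below background in both genotypes. Among genes above background, those of smallest p were linkers and an epithelial keratin. Ppl and Dsp, which tie filaments to epithelial junctions, differed by 0.66 and 0.71 (adjusted p = 0.0717 and 0.0737), Krt18 by 0.51 (adjusted p = 0.132), and Plec, which links desmin and other filaments to anchoring sites, by 0.38 (adjusted p = 0.105). Urothelium markers were higher in the same mice, as given above, and their part in Ppl, Dsp and Krt18 was not tested.

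**Figure D5:**
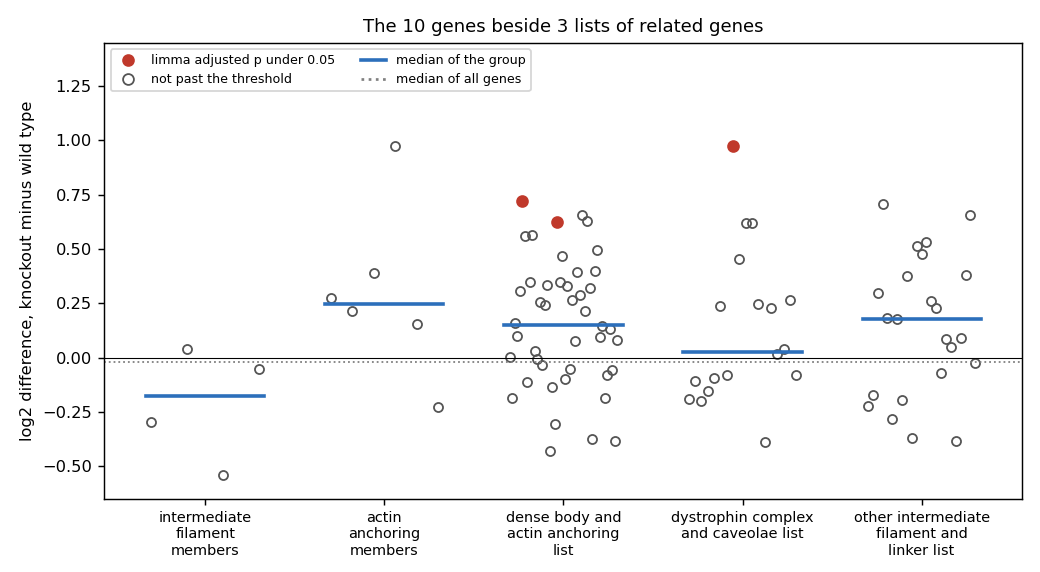
Log2 difference, knockout minus wild type, for the 10 genes split into filament and anchoring genes and for 3 lists of related genes, 1 point per gene. Filled points passed a limma adjusted p of 0.05 (Csrp2, Palld and Dmd), blue lines are group medians and the dotted line is the median of all genes.

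The genes most like Des and Synm across the 4 arrays were found by the Euclidean distance between log2 values centred on each gene's mean, among genes above background. For Des they were Capn2, Prxl2c and Timm13, at distances of 0.02, 0.03 and 0.03 log2 units. Capn2 measured 10.81 and 10.50 in knockout ureters and 10.99 and 10.90 in wild type ureters. For Synm they were Pcca, Atp1a4 and Pim1, at distances of 0.06, 0.07 and 0.07. Pcca measured 10.39 and 10.22 in knockout ureters and 11.08 and 10.58 in wild type ureters. With 4 arrays many of the 19296 genes can share such a pattern.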

How the data were processed

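The authors deposited log2 expression values, with 1 value per probe set and mouse. The submitters' processing notes name RMA, R 2.15.0 and limma 3.12.1. RMA normalizes between arrays, which can reduce a change that most genes share. The deposited columns were not identical in distribution, with gene medians of 7.94 and 7.94 in knockout and 7.84 and 7.89 in wild type. Per the labels' protocols, biotin-labelled cDNA was made from 500 ng of total RNA for Affymetrix whole-transcript arrays. The genome build of the probe sets is not stated in these sources.

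Of 23309 probe sets 20728 had 1 symbol, 1174 several and 1407 none. The brightest of a gene by the mean of the 4 arrays was kept, which left 19296 genes. Background was set at log2 6.58, the 95th percentile of the means of 1024 olfactory receptor genes, and was exceeded by 14227 genes in at least 1 genotype. The comparison of genotypes used limma 3.58.1 under R 4.3.3 (lmFit and eBayes, no covariates), p-values adjusted by Benjamini-Hochberg over the whole table, and a threshold of 0.05. Adjusted p, SE and 95% interval come from this fit unless an alternative is named beside them. The procedure was run on simulated data whose variances were drawn from its own fitted model. That run cannot show how well the model holds for these mice. The precision is limited by 2 mice per genotype.

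The 10 genes, the lists and the tests were chosen with earlier results of these data known. Named genes were the 10, Mir143 and Mir145a, the 4 genes of smallest p above background and every called gene in each of the 3 related lists, and the 3 genes most like Des and Synm. Of the marker genes below background, Myh1, Myh2 and Myh4 were also named. Tnnt2, Myocd, Myot, Mypn, Xirp2, Nrap, Synpo2l, Nefl, Kit, Ano1 and Etv1 were named after their values were seen. Alternatives were a replicate block, a further quantile normalization, centred arrays, averaging the probe sets of a gene, leaving out genes below background, an intensity trend, robust eBayes, array weights and leaving out each mouse. Leaving out Synm or Nexn from the group means was added after seeing the data.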

Additional observations from a re-analysis of the deposited data

How the results depend on the processing

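The 2 mice per genotype limit every value, and age and kidney state follow genotype. Of the 12 alternatives, 6 leave the differences of the 10 genes unchanged by construction and alter only their p. Under the other 6, centring, quantile normalization and leaving out each mouse, all except Vim and Nes kept their direction. Vim turned to 0.033 with a further quantile normalization. Nes turned to -0.046 with it and to -0.042 with centred arrays, and ranged from -0.15 without knockout replicate 1 to 0.23 without knockout replicate 2; the cause was not tested. Synm ranged from -0.77 to -0.32 and Nexn from 0.67 to 1.28.

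Limma called 0 of the 10 genes, 367 genes higher and 92 lower in all, 2 higher dense body genes, 1 higher dystrophin complex gene and 0 other filament and linker genes. The replicate numbers do not pair the mice, which are individual animals (correlation of deviations of same-numbered mice -0.03). With the replicate block 1 of the 10 genes was higher and 1 lower, Nexn (adjusted p = 0.0245) and Synm (0.0383), 1164 genes were higher and 758 lower, and the lists had 7, 3 and 5 higher. A further quantile normalization gave 155 higher and 49 lower genes, with 0 dense body and 0 dystrophin complex genes. Centred arrays gave 317 lower genes and 1 dense body gene. Leaving out genes below background gave 147 lower genes and 4 dense body genes, with fewer genes tested. Robust eBayes called 1 of the 10 genes, Nexn, with 655 genes higher, 247 lower and 6 dense body genes, and array weights gave 1 dense body gene.

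Leaving out each mouse gave 0 to 1 higher and 0 to 0 lower of the 10 genes. It gave 0 to 1115 genes higher and 0 to 629 lower, the highest without knockout replicate 1 and 0 without either wild type mouse. Dense body genes ranged from 0 to 5, dystrophin complex genes from 0 to 2 higher and from 0 to 1 lower, and other filament and linker genes from 0 to 4. The median of the filament genes ranged from -0.30 to -0.09 and that of the anchoring genes from 0.16 to 0.33. The filament minus anchoring contrast ranged from -0.58 to -0.45, and was -0.40 without Synm and -0.37 without Nexn.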
